A study of Mus musculus with 10 samples.

Results

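Spleen CD4+ T cells of mice labelled KO, made to delete *Satb1*, were compared as FoxP3+CD25+ cells, the regulatory T cells (Tregs), and FoxP3-CD25- cells, the non-Tregs, of the same mice. The members are 4 of the 10 bulk RNA-seq libraries, chosen by title: 1 library of each population from each of 2 mice labelled KO1 and KO2. The other 6 libraries are FoxP3+CD25- cells of the KO mice (2 libraries) and the FoxP3+CD25+ and FoxP3-CD25- cells of WT mice (2 libraries each). They are part of the fit of all 10 libraries, in which the groups share 1 estimate of the spread of each gene. Their levels are given only where they show how the KO populations stand. The study asked what *Satb1*, which encodes a chromatin organizer of T cells, does in CD4+ T cells after they have committed to the CD4 lineage.

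KO mice carry *Satb1* F/F with *Thpok-cre*, a driver meant to delete after CD4 commitment in all CD4+ T cells, Tregs and non-Tregs alike. All libraries are from C57BL/6 spleen, untreated, from young adult mice of mixed sexes as described for the whole study. Both genotypes were sorted with a *Foxp3-ires-gfp* reporter, whose GFP is read here as FoxP3, and by surface CD25. Reads counted on genes were 6581228 (KO1) and 7489966 (KO2) in FoxP3+CD25+ cells, and 6094952 (KO1) and 7392967 (KO2) in FoxP3-CD25- cells. A gene without a count in 1 of these libraries is below 3 counts, which is 0.4005 to 0.492 CPM, and such floors cover counting error only. CPM is the number of reads of a gene scaled to a library of fixed size, here with TMM factors in all levels below, and it is not scaled to gene length. Fold changes are log2 values with the standard error (SE) of edgeR's quasi-likelihood fit over 13796 genes in all 10 libraries. Genes with an FDR under 0.05 are called, and their p-values measure the spread between samples.

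Tregs are CD4+ T cells that restrain other lymphocytes and depend on the transcription factor FoxP3. They take up IL-2 through a receptor with the CD25 chain, make little IL-2 of their own, and carry inhibitory and costimulatory receptors such as CTLA-4, GITR and OX40. FoxP3 acts with partners such as Eos and Helios both to raise Treg genes and to lower genes of conventional T cells, so a Treg differs from a non-Treg in both directions.

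*Satb1* itself was not low in the libraries labelled KO. Its level was 598 (KO1) and 534 CPM (KO2) in KO FoxP3+CD25+ cells, and 841 and 682 CPM in KO FoxP3-CD25- cells. WT FoxP3+CD25+ cells held 379 and 478 CPM, WT FoxP3-CD25- cells 818 and 881 CPM, and KO FoxP3+CD25- cells 1186 and 993 CPM. These are counts over the whole gene, with no count per exon, so they do not test whether the deleted part is missing, and KO and WT below are the names on the labels. *Pdcd1*, which encodes PD-1 and is known as a gene that SATB1 represses, stood at 61.0 and 73.8 CPM in KO FoxP3-CD25- cells and at 35.1 and 33.4 CPM in WT FoxP3-CD25- cells. KO FoxP3+CD25+ cells held 71.7 and 71.3 CPM of it, overlapping WT FoxP3+CD25+ cells with 96.5 and 64.4 CPM, and KO FoxP3+CD25- cells held 22.5 and 19.9 CPM. The genotypes were not tested against each other within a population. Between the KO populations *Satb1* was lower in FoxP3+CD25+ cells of both mice (log2 fold change -0.43, SE 0.15), which was not called (FDR 0.163) but was called with the mice as replicate blocks (FDR 0.00515).

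The genes behind the sort separated the populations, which checks the gates and is not a finding. *Foxp3* stood at 739 (KO1) and 646 CPM (KO2) in FoxP3+CD25+ cells against 38.9 and 19.5 CPM in FoxP3-CD25- cells. *Il2ra*, which encodes CD25, stood at 627 and 679 CPM against 11.4 and 5.40 CPM. Genes of CD4 T-cell identity were present in both, and their summed level was lower in the FoxP3+CD25+ cells of both mice, with 7728 and 7299 CPM against 8833 and 8212 CPM. Of 16 such genes, 1 was called higher and 2 lower, against 3.52% and 2.81% of all genes tested. With replicate blocks 1 and 4 were, *Trac* and *Cd28* among the lower. Among the 13 not called was the kinase gene *Lck*, which overlapped, with 929 and 748 CPM against 1078 and 836 CPM. *Cd4* was lower in FoxP3+CD25+ cells, with 806 and 749 CPM against 1142 and 1145 CPM (log2 fold change -0.56, SE 0.12, FDR 0.0158), *Thy1* was also lower, and *Cd2* was higher. All 3 of these calls were lost with any 1 of the 4 libraries left out (FDR 0.0722 to 0.205).

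In the libraries labelled KO, FoxP3+CD25+ cells differed from FoxP3-CD25- cells in both directions. Treg surface receptors such as GARP and 4-1BB, the transcription factors Eos and Helios and some IL-2 response genes were higher, and some genes of helper cytokines and of naive T cells and a vasoactive peptide receptor gene were lower. Of 13796 genes tested, 874 were called (6.34%), 486 higher in FoxP3+CD25+ cells (3.52%) and 388 lower (2.81%). The median log2 fold change was 1.41 among genes called higher and -1.01 among genes called lower, against -0.0012 over all genes tested, and 319 and 194 of them reached a log2 fold change of 1 in size. With the mice as replicate blocks, 1649 genes were called (12%), 895 higher and 754 lower, and these held all 874. The counts called in each gene list below are to be read beside these shares over all genes. Leaving out 1 library gave 425 calls without KO FoxP3+CD25+ replicate 1, 396 without replicate 2, 441 without KO FoxP3-CD25- replicate 1 and 430 without replicate 2, with no called gene turned in direction. In bulk RNA a change in the share of cells that express a gene and a change in RNA per cell cannot be told apart.

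**Figure D1:**
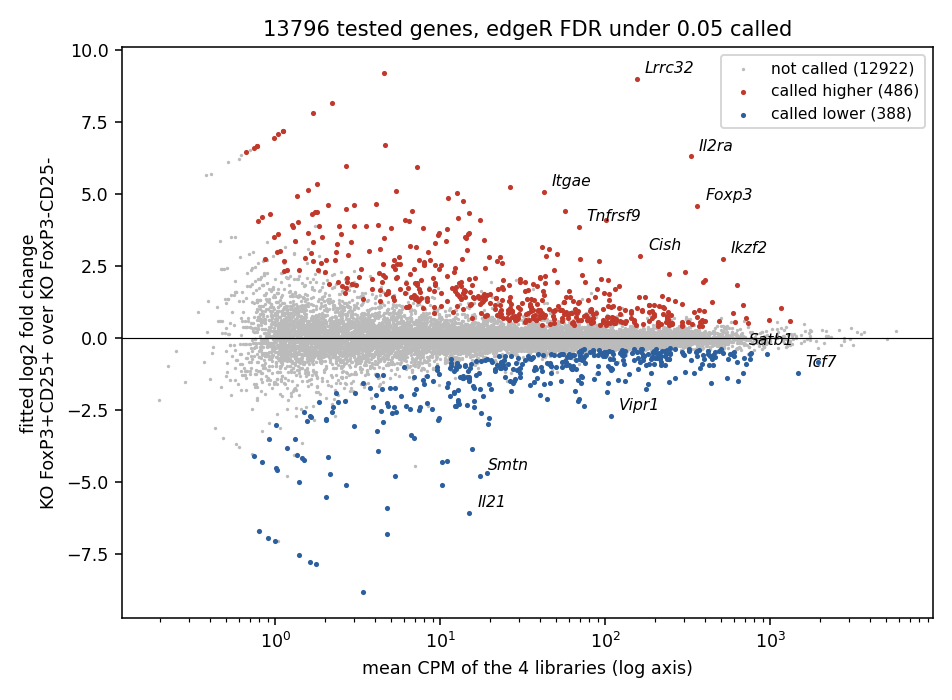
Fitted log2 fold change of KO FoxP3+CD25+ over KO FoxP3-CD25- cells (y) against the mean CPM of the 4 libraries (x, log axis), 1 point per gene for 13796 genes. Red points are the 486 genes called higher, blue points the 388 called lower, and *Foxp3*, *Il2ra* and *Lrrc32* stand far above the rest at their level.

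Surface proteins of Tregs were among the genes called higher. *Lrrc32* (chr7:98489283-98502181, GENCODE M21 on GRCm38) encodes GARP, which holds latent TGF-beta on the Treg surface. Its level was 330 (KO1) and 290 CPM (KO2) in FoxP3+CD25+ cells against 1.32 and 0 CPM in FoxP3-CD25- cells (log2 fold change 8.999, SE 0.48, FDR 1.2e-06). The FoxP3-CD25- level rests on 8 counts (KO1) and 0 counts (KO2), so the size of this fold is imprecise, and within KO1 the difference in log2 CPM was 7.72. *Tnfrsf9*, which encodes the costimulatory receptor 4-1BB, had the lowest p of all genes, with 128 and 130 CPM against 9.26 and 8.43 CPM (3.87, SE 0.16, FDR 1.2e-06). For each of these genes both FoxP3+CD25+ libraries lay above both FoxP3-CD25- libraries by far more than the difference between mice. *Tnfrsf4* (OX40) stood at 162 and 153 CPM against 22.5 and 26.7 CPM (2.67, SE 0.17, FDR 1.71e-05). *Tnfrsf18* (GITR) stood at 178 and 199 CPM against 50.9 and 56.9 CPM (1.80, SE 0.17, FDR 0.000169). *Cd83*, an immunoglobulin-family surface protein of activated lymphocytes, stood at 86.1 and 78.1 CPM against 7.28 and 11.6 CPM (3.10, SE 0.20, FDR 1.71e-05). None of these groups overlapped.

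Eos and Helios, Ikaros-family factors known as partners of FoxP3, were higher, while *Ikzf1* of the same family was called lower. *Ikzf4* (Eos) had 192 CPM in both FoxP3+CD25+ libraries against 13.2 and 9.09 CPM (log2 fold change 4.12, SE 0.20, FDR 1.42e-06), and *Ikzf2* (Helios) had 944 and 848 CPM against 129 and 136 CPM (2.76, SE 0.20, FDR 2.92e-05). Other genes among the 10 of lowest p called higher were *Swap70*, whose product binds membrane phosphoinositides, *Ift80*, which encodes an intraflagellar transport protein, and *Ccdc22*, which encodes a part of an endosomal recycling complex. *Swap70* stood at 73.4 and 74.2 CPM against 10.4 and 6.32 CPM, and *Ift80* at 663 and 631 CPM against 161 and 156 CPM. *Ccdc22* followed *Foxp3*, with 51.1 and 51.2 CPM against 2.15 and 0.659 CPM. Its exons share 2957 of their 3427 bases with *Gm36995* on the same strand, where strand does not tell the 2 genes apart. They also share 590 bases with those of *Foxp3* on the opposite strand. Since the strand setting of the counting was not stated, reads of *Ccdc22* and *Foxp3* cannot be told apart there. The same holds for each of the 28 named genes, of 94, with exon bases opposite another gene, among them *Lef1* (1208 bases), *Ptger4* (1015 bases), *Smtn* (714 bases) and *Il21* (469 bases).

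Among genes called lower, *Vipr1* had the lowest p. It lies at chr9:121642716-121672954 and encodes a receptor for vasoactive intestinal peptide that raises cyclic AMP. Its level was 31.4 (KO1) and 26.2 CPM (KO2) in FoxP3+CD25+ cells against 187 CPM in both FoxP3-CD25- libraries (log2 fold change -2.70, SE 0.12, FDR 1.42e-06). *Ggt5*, whose enzyme converts leukotriene C4 to D4, stood at 1.07 and 1.70 CPM against 39.2 and 34.9 CPM (-4.70, SE 0.30, FDR 1.71e-05). *Smtn*, which encodes the cytoskeletal protein smoothelin, stood at 1.22 and 1.18 CPM against 36.1 and 31.1 CPM (-4.79, SE 0.34, FDR 3.18e-05). All 3 genes were thus near the floor or several fold down in the Tregs of both mice. *Il21*, the cytokine of follicular helper cells, stood at 0.458 and 0.393 CPM against 23.3 and 35.8 CPM (-6.09, SE 0.55, FDR 0.000123).

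Enzymes, a transporter and a cytoskeletal regulator made up most of the other 6 genes of lowest p called lower. *Cyp2s1*, a cytochrome P450 gene, stood at 3.97 (KO1) and 4.72 CPM (KO2) in FoxP3+CD25+ cells against 34.6 and 34.8 CPM in FoxP3-CD25- cells. *Slc26a11*, an anion transporter gene, stood at 16.5 and 15.7 CPM against 63.0 and 65.0 CPM, and *Mboat1*, a lysophospholipid acyltransferase gene, at 12.1 and 11.5 CPM against 42.0 and 41.6 CPM. Smaller differences were those of *Sgms1* (sphingomyelin synthase), *Fam101b* (refilin B, which binds filamin) and *Fam78a*. Their log2 fold changes were -1.43, -1.39 and -1.21 (SE 0.13, 0.11 and 0.10), with FDR 0.000126, 7.14e-05 and 7.14e-05. In *Fam78a*, with 204 and 212 CPM against 488 and 474 CPM, mice of 1 population differed by a few percent.

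**Figure D2:**
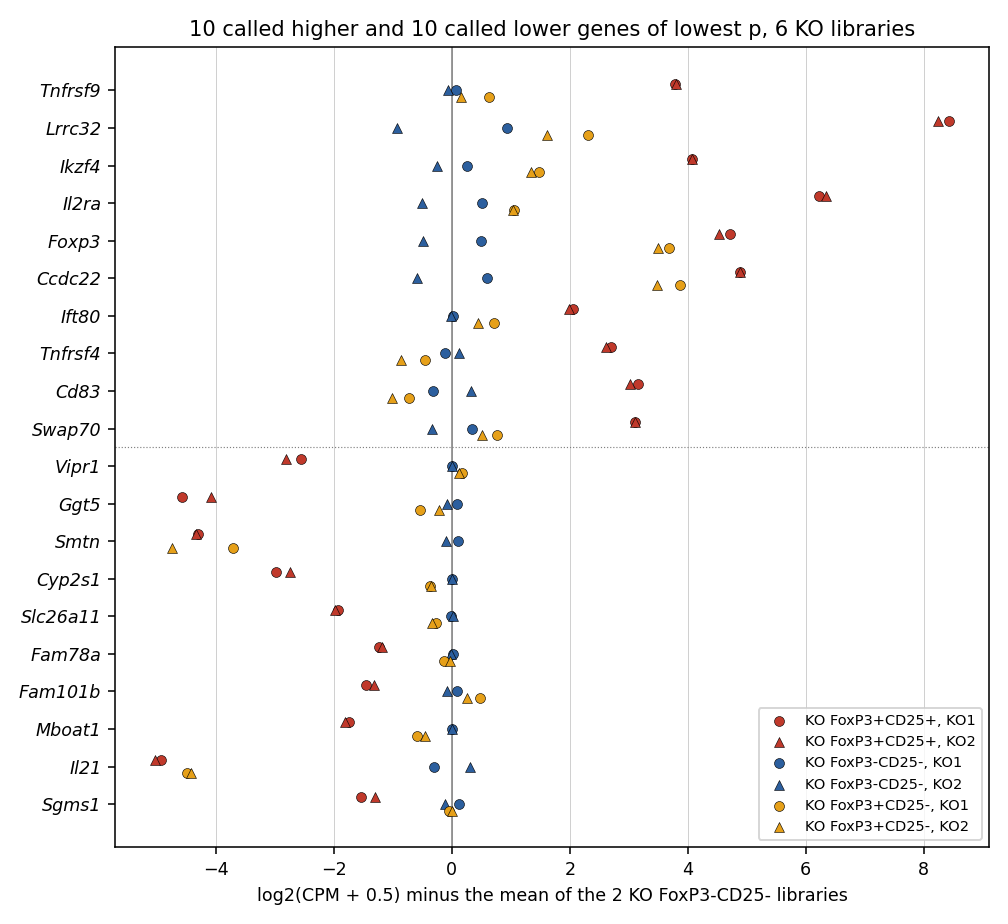
log2(CPM + 0.5) of each KO library minus the mean of the 2 KO FoxP3-CD25- libraries (x) for the 10 genes of lowest p called higher and the 10 called lower (y). Circles are KO1 and triangles KO2. The FoxP3+CD25+ points (red) lie clear of the FoxP3-CD25- points (blue) in all 20 genes, which follows from their choice by p. The FoxP3+CD25- points (orange) lie nearer to the blue points than to the red in most, but not in *Foxp3*, *Ccdc22*, *Smtn* and *Il21*.

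Promoters are shown for the 2 genes of lowest p in each direction that have an entry in RefSeq's promoter table (GRCm38.p6), leaving out *Foxp3* and *Il2ra*. *Lrrc32*, *Ikzf4* and *Ggt5* have none. Each sequence is the 250 bases before the start site, 5′ to 3′ on the strand of the gene: *Tnfrsf9* chr4:150919905-150920154 (+ strand, the 1 of its 2 listed start sites that lies nearest the gene's 5′ end in GENCODE M21), *Ccdc22* chrX:7605421-7605670 (- strand), *Vipr1* chr9:121642466-121642715 (+ strand) and *Smtn* chr11:3539293-3539542 (- strand). Capitals mark a match to any of 5 motifs searched on both strands.
Tnfrsf9: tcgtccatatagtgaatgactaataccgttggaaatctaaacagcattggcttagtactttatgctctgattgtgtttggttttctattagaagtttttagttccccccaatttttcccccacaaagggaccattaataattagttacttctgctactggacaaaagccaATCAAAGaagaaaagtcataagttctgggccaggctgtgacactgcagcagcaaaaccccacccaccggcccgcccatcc
Ccdc22: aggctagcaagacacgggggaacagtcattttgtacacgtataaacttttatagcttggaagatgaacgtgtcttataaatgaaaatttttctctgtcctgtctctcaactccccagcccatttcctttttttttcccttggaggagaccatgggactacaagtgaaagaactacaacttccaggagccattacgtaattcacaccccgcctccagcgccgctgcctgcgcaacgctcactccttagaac
Vipr1: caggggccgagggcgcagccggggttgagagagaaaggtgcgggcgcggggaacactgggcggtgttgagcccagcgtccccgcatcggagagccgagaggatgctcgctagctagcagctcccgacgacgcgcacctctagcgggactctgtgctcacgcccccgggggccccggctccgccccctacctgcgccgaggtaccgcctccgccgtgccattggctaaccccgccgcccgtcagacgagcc
Smtn: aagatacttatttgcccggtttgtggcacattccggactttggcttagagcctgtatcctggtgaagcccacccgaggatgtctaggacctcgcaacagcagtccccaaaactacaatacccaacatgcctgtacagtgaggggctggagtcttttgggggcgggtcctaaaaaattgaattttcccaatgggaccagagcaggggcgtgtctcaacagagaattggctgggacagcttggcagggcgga
The only match, in *Tnfrsf9*, is the TCF/LEF motif CTTTGAT on the other strand. Of the 13796 genes tested, 9183 (66.6%) had a promoter by symbol, 344 of the 486 called higher and 279 of the 388 called lower. In the whole window of 300 bases, 250 before and 50 after the start, the STAT motif TTCNNNGAA had a match in 11.9% of promoters of genes called higher, in 4.30% of those called lower and in 6.86% of all. The forkhead motif TGTTTAC had a match in 3.78%, 2.51% and 2.43%, the AP-1 motif TGANTCA in 6.10%, 4.30% and 4.57%, the Runx motif TGTGGTT in 4.07%, 5.38% and 3.82%, and the TCF/LEF motif in 1.16%, 2.15% and 2.47%. These shares are descriptions with no test, and a match is not a binding site.

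Most of the genes that mark Tregs were high in the KO Tregs. The gene lists were chosen with earlier results of these data known. Of 35 genes of a Treg signature, all of which were tested, 28 were called higher and 0 lower, against 3.52% and 2.81% of all genes tested. Their median log2 fold change was 2.29 against -0.0012 over all genes. Their summed level was 7206 (KO1) and 6388 CPM (KO2) in FoxP3+CD25+ cells against 1799 and 1827 CPM in FoxP3-CD25- cells. Beside the receptors above, they included *Itgae*, the CD103 integrin chain that binds E-cadherin, at 79.3 and 84.6 CPM against 2.98 and 1.98 CPM (5.07, SE 0.52, FDR 0.000274). *Klrg1*, an inhibitory receptor of differentiated T cells, stood at 24.6 and 18.6 CPM against 0.165 and 1.19 CPM (4.85, SE 0.56, FDR 0.000442). The chemokine receptor gene *Ccr8* stood at 28.8 and 23.3 CPM against 2.48 and 2.11 CPM (3.51, SE 0.41, FDR 0.000613). The 7 members not called were *Nrp1*, *Entpd1*, *Tigit*, *Il10*, *Icos*, *Plagl1* and *Prdm1*; with replicate blocks 33 members were called higher, all but *Icos* and *Prdm1*. *Nrp1*, which encodes neuropilin-1, stood at 264 and 330 CPM against 102 and 180 CPM (1.08, SE 0.37), with FDR 0.137 in the group-mean fit and 0.000672 with replicate blocks.

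Molecules through which Tregs suppress were part of the difference. Of 26 such genes 24 were tested, 12 were called higher and 1 lower, with a median log2 fold change of 1.31, and with replicate blocks 16 and 1 were; the list shares members with the Treg signature. *Ctla4*, the inhibitory receptor that takes up CD80 and CD86, stood at 620 (KO1) and 385 CPM (KO2) against 124 and 81.8 CPM (2.29, SE 0.46, FDR 0.0133). The mice differed in level in both populations, and the call was lost without KO FoxP3+CD25+ replicate 1 or KO FoxP3-CD25- replicate 2. *Nt5e*, whose CD73 product makes adenosine, stood at 354 and 336 CPM against 119 and 152 CPM (1.35, SE 0.21, FDR 0.00325). *Penk*, the precursor of enkephalin, stood at 34.5 and 46.1 CPM against 3.47 and 7.64 CPM (2.82, SE 0.37, FDR 0.00126). The 1 member called lower was *Prf1*, the pore-forming protein of cytotoxic granules, with 7.93 and 8.38 CPM against 20.2 and 23.3 CPM (-1.42, SE 0.17, FDR 0.000653). The cytokine gene *Il10* stood at 13.4 and 7.34 CPM against 2.48 and 4.88 CPM, with FDR 0.268 and, with replicate blocks, 0.0444. *Pdcd1* was at 71.7 and 71.3 CPM against 61.0 and 73.8 CPM, overlapping between the populations (0.08, SE 0.18, FDR 0.913).

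**Figure D3:**
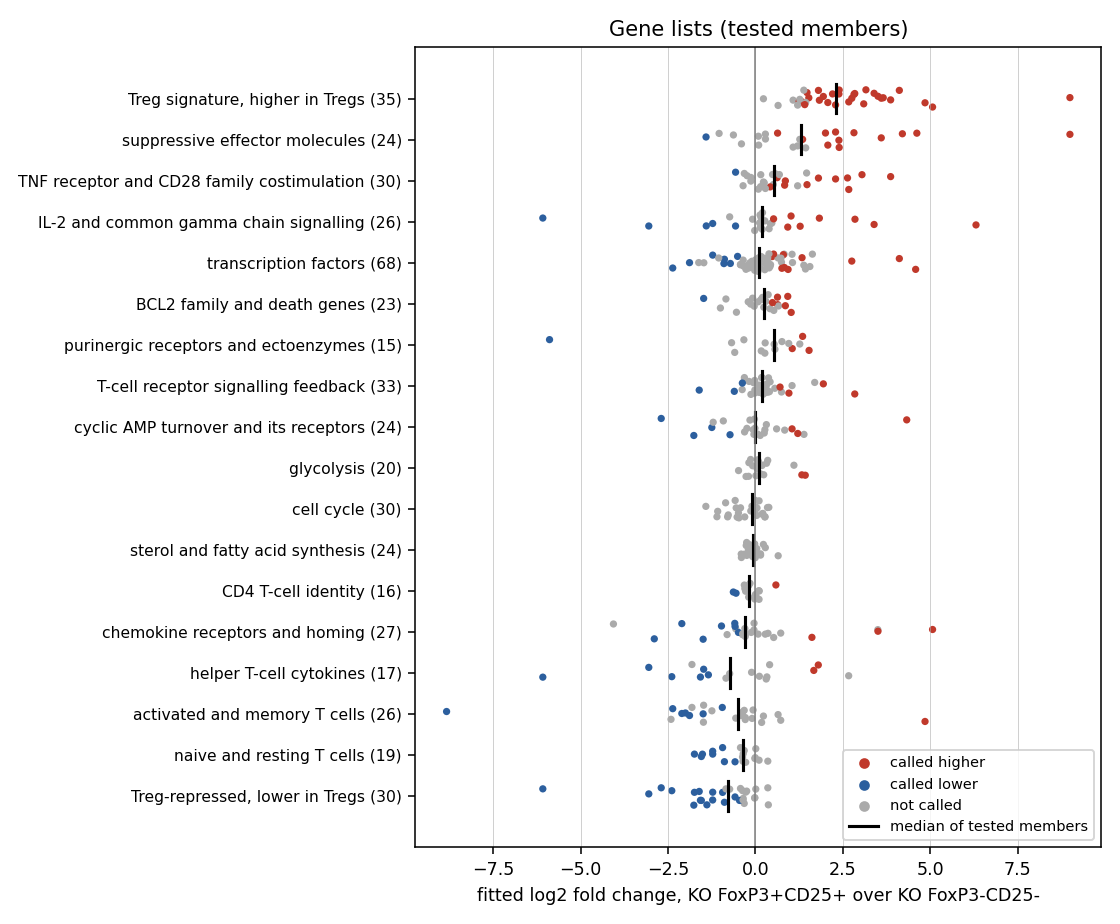
Fitted log2 fold change of KO FoxP3+CD25+ over KO FoxP3-CD25- cells (x) for each tested member of 18 gene lists (y, number of tested members in parentheses), red for called higher, blue for called lower, grey for not called, with a black bar at the median. The Treg signature has its median at 2.29 and the Treg-repressed genes at -0.79, while glycolysis, cell cycle and sterol synthesis lie around 0.

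Some genes of costimulatory receptors and of IL-2 signalling were called. Of 32 genes of TNF receptors and the CD28 family, 30 were tested, 11 were called higher and 1 lower, and 18 were not called, with a median of 0.54; with replicate blocks 16 and 2 were called. Among 27 genes of IL-2 and common gamma chain signalling, 26 were tested, 8 were called higher, the sort gene *Il2ra* included, and 5 lower, and 13 were not called, with a median of 0.20; with replicate blocks 10 and 5 were called. *Cish*, a STAT5-induced feedback inhibitor, stood at 316 (KO1) and 256 CPM (KO2) against 47.6 and 32.1 CPM (2.85, SE 0.20, FDR 2.86e-05). The other IL-2 receptor and response genes called higher were *Il2rb*, *Pim1*, *Socs1*, *Socs2*, *Bcl2* and *Stat5a*, while the cytokine genes *Il21* and *Il2*, the receptor genes *Il7r* and *Il9r*, and *Pim2* were called lower. *Jak1*, the kinase shared by these receptors, was at 1187 and 1141 CPM against 1273 and 1193 CPM (-0.08, SE 0.12, FDR 0.845). *Cd28* stood at 430 and 334 CPM against 508 and 445 CPM, with FDR 0.496 and, with replicate blocks, 0.0293.

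Transcription factor genes were called in both directions. Of 69 listed genes 68 were tested, 10 were called higher, among them the sort gene *Foxp3* and *Ikzf4* and *Ikzf2*, and 7 lower, with a median of 0.11; with replicate blocks the numbers were 25 and 12. The others called higher were *Rel*, *Nfkb2* and *Relb* of the NF-kappaB family, *Irf8*, *Gfi1*, *Stat5a* and *Ikzf3*. Those called lower were *Tcf7*, *Id2*, *Ikzf1*, *Lef1*, *Tbx21*, *Runx3* and *Nfatc3*. *Tcf7*, which encodes TCF-1, a factor of naive and stem-like T cells, stood at 881 (KO1) and 884 CPM (KO2) against 2038 and 2084 CPM (-1.22, SE 0.12, FDR 0.000188). Its relative *Lef1* stood at 304 and 236 CPM against 546 and 454 CPM (-0.89, SE 0.15, FDR 0.0042), a call lost without KO FoxP3+CD25+ replicate 2 (FDR 0.0531). *Bcl11b*, which keeps T-cell identity, overlapped between the populations with 838 and 727 CPM against 885 and 758 CPM, and so did *Id3* with 67.9 and 67.3 CPM against 76.4 and 61.3 CPM.

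Genes that Tregs are known to keep low were lower in the KO Tregs in part. Of 30 Treg-repressed genes, all tested, 16 were called lower and 0 higher, with a median log2 fold change of -0.79; with replicate blocks 20 and 2 were. Their summed level was 8140 (KO1) and 7998 CPM (KO2) against 13393 and 12468 CPM. *Pde3b*, a phosphodiesterase that degrades cyclic AMP, stood at 95.7 (KO1) and 64.9 CPM (KO2) against 305 and 240 CPM (-1.76, SE 0.27, FDR 0.00308). *Themis*, which tunes T-cell receptor signals, stood at 86.1 and 93.8 CPM against 279 and 270 CPM (-1.61, SE 0.16, FDR 0.000234). The 14 not called included *Satb1*, *Bach2*, *Foxp1*, *Klf2* and *Ccr7*. With replicate blocks *Satb1* and *Ccr7* were called lower (FDR 0.00515 and 0.0201) and *Bach2* higher (FDR 0.0147). Of 20 genes of naive and resting T cells, 19 were in the files by symbol, and 8 were called lower and 0 higher, with a median of -0.37. The other, *Rflnb*, is listed there as *Fam101b*, described above as called lower, and is not in these counts. With replicate blocks 11 were called lower and 1 higher, *Bach2* (FDR 0.0147). *Als2cl* stood at 112 and 139 CPM against 348 and 373 CPM, and *Igfbp4*, an IGF-binding protein gene, at 247 and 201 CPM against 751 and 559 CPM (-1.52 and -1.55, SE 0.15 and 0.22, FDR 0.000245 and 0.0019).

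Helper cytokine genes differed in part. Of 28 genes 17 were tested, 6 were called lower (*Il21*, *Ifng*, *Il2*, *Cd40lg*, *Fasl* and *Tnfsf14*) and 2 higher (*Lta* and *Csf1*), and 9 were not called, with a median of -0.74; with replicate blocks 8 and 4 were. *Ifng*, the Th1 cytokine, stood at 4.73 (KO1) and 5.37 CPM (KO2) against 27.1 and 26.4 CPM (-2.40, SE 0.35, FDR 0.00235). *Lta*, which encodes lymphotoxin alpha, stood at 51.3 and 67.7 CPM against 16.7 and 17.5 CPM (1.80, SE 0.22, FDR 0.00087). *Ltb*, its partner, was at 608 and 643 CPM against 461 and 484 CPM, with FDR 0.117 and, with replicate blocks, 0.0318.

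Some genes of activated and memory T cells were lower in the KO Tregs than in the KO non-Tregs. Of 26 genes, all tested, 1 was called higher (*Klrg1*) and 7 lower, and 18 were not called, with a median of -0.49; with replicate blocks 13 were called lower. *Tbx21*, the Th1 factor T-bet, stood at 3.36 (KO1) and 4.59 CPM (KO2) against 14.4 and 26.6 CPM (-2.37, SE 0.40, FDR 0.00553), and the call was lost without KO FoxP3+CD25+ replicate 1 (FDR 0.0553) or KO FoxP3-CD25- replicate 2 (FDR 0.0528). *Cxcr3*, a chemokine receptor of Th1 cells, stood at 27.0 and 25.3 CPM against 104 and 121 CPM (-2.11, SE 0.36, FDR 0.00586), with FDR 0.0597 without KO FoxP3+CD25+ replicate 2. *Id2*, an inhibitor of E proteins, stood at 51.0 and 36.03 CPM against 186 and 135 CPM (-1.89, SE 0.28, FDR 0.00231). *Gzmk*, singled out after its values were seen, had 0 counts in both FoxP3+CD25+ libraries against 21 (KO1) and 77 counts (KO2) in the FoxP3-CD25- libraries, at least 34.1-fold lower when 3 counts over the group are taken as the floor (FDR 0.0304). The bound was 18.1 without KO FoxP3+CD25+ replicate 1, 15.9 without replicate 2, 48.9 without KO FoxP3-CD25- replicate 1 and 16.2 without replicate 2. The call was lost in all of these but the third (FDR 0.121, 0.161 and 0.183). Placing *Gzmk* at 34.1 leaves the median of the list at -0.49. *Cd44*, the hyaluronan receptor raised on activated T cells, was at 124 and 112 CPM against 148 and 156 CPM (-0.37, SE 0.19), with FDR 0.41 and, with replicate blocks, 0.027.

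Homing receptors differed in both directions. Of 32 genes 27 were tested, 3 were called higher (*Itgae*, *Ccr8* and *Ccr6*) and 7 lower (*Cxcr3*, *Ccr10*, *Itgb1*, *S1pr4*, *S1pr1*, *Cxcr5* and *Gpr183*), and 17 were not called, with a median of -0.29; with replicate blocks 3 and 11 were. *Itga4*, an integrin chain for entry into tissue, was at 1114 and 1145 CPM against 1188 and 1579 CPM (-0.29, SE 0.18, FDR 0.527).

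A few genes for receptors and enzymes of cyclic AMP differed, in both directions. Of 27 genes 24 were tested, 3 were called higher (*Ptger4*, *Ptger2* and *Pde7b*) and 4 lower (*Vipr1*, *Pde7a*, *Pde3b* and *Adcy7*), and 17 were not called, with a median of -0.02; with replicate blocks 5 and 6 were. *Ptger4*, a prostaglandin E2 receptor gene, stood at 179 (KO1) and 149 CPM (KO2) against 84.4 and 74.6 CPM (1.05, SE 0.14, FDR 0.00118). *Prkar1a*, a regulatory subunit gene of protein kinase A, overlapped with 488 and 426 CPM against 505 and 437 CPM. *Pde7a*, a phosphodiesterase gene, stood at 85.0 and 79.8 CPM against 206 and 185 CPM (-1.25, SE 0.14, FDR 0.000424). Of 22 genes for purine receptors and ectoenzymes, 15 were tested, 3 were called higher (*P2rx7*, *Nt5e* and *Cd38*) and 1 lower (*P2ry1*), with a median of 0.53; with replicate blocks 6 and 2 were. *P2rx7*, an ATP-gated channel gene, stood at 206 and 212 CPM against 105 and 96.6 CPM (1.05, SE 0.10, FDR 0.000137). *P2ry1*, an ADP receptor gene, had 2 counts in the FoxP3+CD25+ libraries together and 126 in the FoxP3-CD25- libraries. The ratio was 65.7 (exact 95% counting interval 17.8 to 549, FDR 0.000492), and 992 bases of its exons lie opposite those of *Gm37035*. Its level was 10.4 and 8.30 CPM in KO FoxP3-CD25- cells and 2.32 and 1.65 CPM in WT FoxP3-CD25- cells. WT FoxP3+CD25+ cells held 1.66 and 0.354 CPM of it. *P2ry10*, a lysophospholipid receptor gene, was at 424 and 354 CPM against 316 and 213 CPM (0.56, SE 0.23), with FDR 0.265 and, with replicate blocks, 0.0156.

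Feedback genes of T-cell receptor signalling and survival genes changed in part. Of 34 feedback genes 33 were tested, 4 were called higher (*Nfkbia*, *Dusp4*, *Rgs1* and *Rgs10*) and 3 lower, among them *Themis* and *Dusp6*, with a median of 0.19; with replicate blocks 13 and 5 were. *Nfkbia*, the inhibitor of NF-kappaB, stood at 544 (KO1) and 431 CPM (KO2) against 269 and 234 CPM (0.96, SE 0.16, FDR 0.00403). *Dusp6*, which encodes an ERK phosphatase, stood at 40.9 and 41.7 CPM against 66.7 and 59.2 CPM (-0.61, SE 0.12, FDR 0.0114), and lost its call without KO FoxP3+CD25+ replicate 1 (FDR 0.0935) or 2 (0.0921) or KO FoxP3-CD25- replicate 1 (0.124). *Dgka*, which ends diacylglycerol signals, was at 1111 and 1120 CPM against 1386 and 1393 CPM, with FDR 0.144 and, with replicate blocks, 0.0185. Of 25 BCL2-family and death genes 23 were tested, 6 were called higher (*Birc3*, *Fas*, *Bcl2l1*, *Bcl2*, *Casp8* and *Bcl2l11*) and 1 lower (*Fasl*), with a median of 0.24; with replicate blocks 8 and 1 were. *Birc3*, an inhibitor of apoptosis, stood at 176 and 185 CPM against 111 and 122 CPM (0.63, SE 0.10, FDR 0.00357), with FDR 0.055 without KO FoxP3-CD25- replicate 1. *Fas* lost its call without KO FoxP3-CD25- replicate 1 (FDR 0.052) or 2 (0.0541) and without KO FoxP3+CD25+ replicate 2 (0.0642), and *Bcl2l1* without KO FoxP3+CD25+ replicate 1 (0.0665) or KO FoxP3-CD25- replicate 2 (0.0702). *Mcl1* was at 1002 and 910 CPM against 888 and 776 CPM (0.20, SE 0.13, FDR 0.544).

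Metabolism and division separated the populations little. In glycolysis the median was 0.10, and with replicate blocks 2 genes were called higher and 1 lower. In the group-mean fit 2 of 20 tested genes were called higher and 0 lower, against 3.52% and 2.81% of all genes tested. One was *Slc2a3*, a glucose transporter gene, with 146 (KO1) and 155 CPM (KO2) against 60.5 and 59.8 CPM (1.33, SE 0.12, FDR 0.000111), and the other was *Hk2*, a hexokinase gene whose call was lost with any 1 of the 4 libraries left out (FDR 0.077 to 0.168). *Pkm*, pyruvate kinase, overlapped with 454 and 389 CPM against 442 and 394 CPM. The sterol regulator gene *Srebf2* overlapped with 376 and 370 CPM against 410 and 372 CPM, and the replication gene *Mcm6* stood at 166 and 120 CPM against 121 and 115 CPM (0.27, SE 0.15, FDR 0.442). None of 30 cell-cycle genes and none of the 24 tested of 27 sterol and fatty acid genes was called by edgeR (medians -0.09 and -0.07). With replicate blocks 3 cell-cycle genes were called lower and 1 sterol gene higher.

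Markers of other cell types were low, apart from *Ighm* and *Pecam1*, and a few differed between the populations. The 16 B-cell and plasma-cell genes summed to 418 (KO1) and 478 CPM (KO2) in FoxP3+CD25+ cells against 254 and 298 CPM in FoxP3-CD25- cells, and their most abundant gene was *Ighm*, with 352 and 412 CPM against 215 and 265 CPM (FDR 0.0545, with replicate blocks 0.00099). Of the 8 tested, *Cd74* and *Cd79b* were called higher and *Cd22* lower, and with replicate blocks 4 and 1 were. The defining B-cell gene *Ms4a1* had at most 5 counts in any of the 4 libraries, and the plasma-cell gene *Jchain* at most 1. *Cd74* stood at 31.6 and 37.3 CPM against 4.96 and 4.74 CPM, and *Cd22* at 5.95 and 4.46 CPM against 20.5 and 17.4 CPM. *Cd79b* stood at 14.7 and 14.4 CPM against 5.13 and 3.16 CPM, with FDR 0.0777 without KO FoxP3-CD25- replicate 2.

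For NK and gamma delta T cells, 13 genes summed to 35.0 and 35.4 CPM in FoxP3+CD25+ cells against 41.8 and 42.3 CPM in FoxP3-CD25- cells, with *Trdc* the most abundant, *Klra8* at 0 in the 4 libraries and *Ncr1* at most 2 counts. *Tcrg-C4* and *Tcrg-C2*, constant genes of the gamma chain, were the 2 called higher of 7 tested, with 0 lower, and with replicate blocks 2 and 2 were. *Tcrg-C4* stood at 9.92 and 9.83 CPM against 1.16 and 1.58 CPM, and *Tcrg-C2* lost its call with any 1 of the 4 libraries left out (FDR 0.106 to 0.38). The 18 myeloid and dendritic-cell genes summed to 33.2 and 21.05 CPM against 27.4 and 23.3 CPM, with *Csf1r* the most abundant and *Fcgr1*, *Ly6g*, *S100a9* and *Batf3* at 0. Only *Itgam* of 5 tested was called, lower, while with replicate blocks 1 was higher and 1 lower, and the call of *Itgam* was lost with any 1 library left out (FDR 0.0777 to 0.201). *Cd8a* and *Cd8b1* summed to 16.6 and 13.2 CPM against 15.7 and 13.4 CPM, and neither was called. Of 15 erythroid, platelet and stromal genes, which summed to 239 and 292 CPM against 243 and 248 CPM and of which *Pecam1* was the most abundant and *Hba-a2* and *Pf4* were at 0, 0 of 3 tested were called. What part other cell types have in the genes called was not tested.

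Genes of stress and dissociation, a measure of sample handling, summed to more in the Tregs of both mice. The 18 genes summed to 9944 (KO1) and 8173 CPM (KO2) in FoxP3+CD25+ cells against 8161 and 6623 CPM in FoxP3-CD25- cells, and their most abundant gene was *Hsp90ab1*. Of 16 tested, *Dusp1* and *Fosb* were called higher (log2 fold change 1.15 and 0.60, SE 0.27 and 0.14, FDR 0.0273 and 0.0286), and 6 were with replicate blocks. *Dusp1* lost its call with any 1 library left out (FDR 0.0531 to 0.178), and *Fosb* without 3 of the 4, up to FDR 0.232 without KO FoxP3-CD25- replicate 1. *Hsp90ab1* differed between mice, with 2951 and 1565 CPM against 2443 and 1242 CPM (FDR 0.825, with replicate blocks 0.0281). The part of handling in the programme was not tested. Both populations come from the same mice, so sex-linked genes could show no difference of sex between them, and none of 6 was called. The Y-linked *Ddx3y* was present in both KO mice, with 224 and 193 CPM against 257 and 205 CPM.

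**Figure D4:**
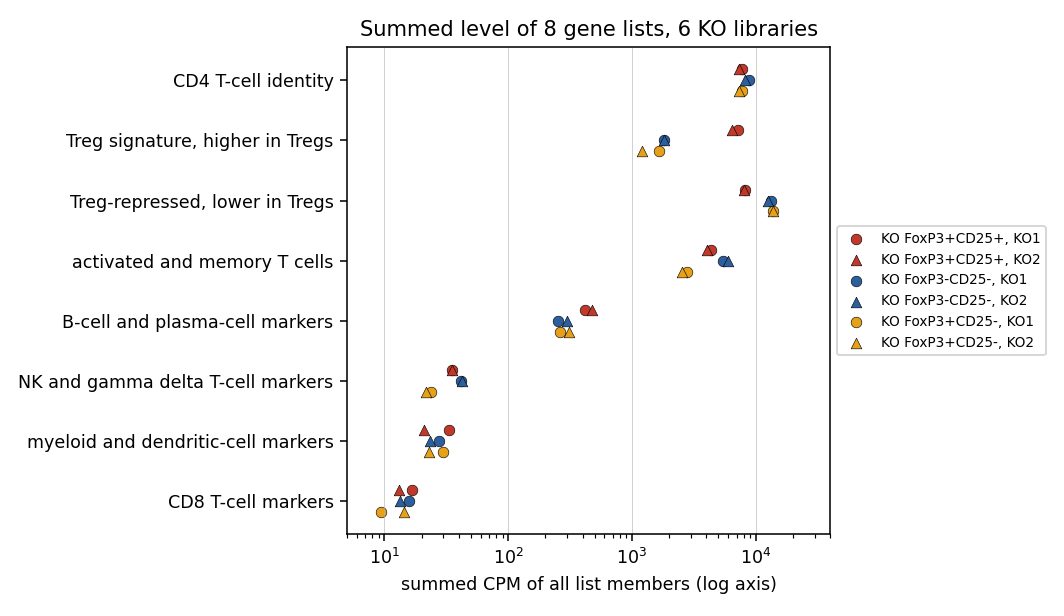
Summed CPM of all members of 8 gene lists (x, log axis) in each of the 6 KO libraries; circles are KO1 and triangles KO2. FoxP3+CD25+ libraries (red) stand apart from the other populations in the Treg signature (7206 and 6388 CPM) and in the Treg-repressed genes, while CD4 T-cell genes are high in all 6 and CD8, myeloid and NK markers are low in all.

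The FoxP3+CD25- cells of the same KO mice show how far FoxP3 without CD25 goes along with these levels. A comparison with them would use the same libraries again, so their levels are given side by side with no test. *Foxp3* stood at 361 (KO1) and 318 CPM (KO2) in them, between the 2 other KO populations, while *Il2ra* stood at 16.8 and 16.7 CPM, near FoxP3-CD25- cells. *Lrrc32* was at 4.20 and 2.41 CPM, *Tnfrsf9* at 13.9 and 9.85 CPM, *Ikzf2* at 103 and 74.2 CPM and *Itgae* at 4.85 and 2.41 CPM, all close to or below the levels in FoxP3-CD25- cells when set beside those of FoxP3+CD25+ cells. Their 35 signature genes summed to 1658 and 1213 CPM. *Vipr1* (211 and 202 CPM) and *Tcf7* (1626 and 1740 CPM) also stood nearer to FoxP3-CD25- cells. Other genes did not: *Cxcr3* (12.6 and 9.85 CPM), *Ifng* (0.808 and 0.547 CPM), *Tbx21* (1.13 and 1.42 CPM), *Cd44* (17.9 and 16.1 CPM), *Il21* (0.808 and 0.875 CPM) and *Smtn* (2.101 and 0.766 CPM) were below both FoxP3-CD25- libraries. *Cd69*, an early activation marker singled out after its values were seen, was not, with 522 and 271 CPM against 482 and 236 CPM. *Id2* (109 and 70.8 CPM) and, of genes called higher, *Slc2a3* (107 and 116 CPM) and *Ikzf4* (31.4 and 28.7 CPM) lay between the other populations. The 26 activated and memory genes summed to 2767 and 2529 CPM in FoxP3+CD25- cells, 4356 and 4014 CPM in FoxP3+CD25+ cells and 5404 and 6007 CPM in FoxP3-CD25- cells.

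WT libraries, which share none with the KO comparison, held the same programme in the main. Both comparisons come from 1 fit with a shared spread for each gene, so their calls are not independent. In them 1504 genes were called (10.9%), 987 higher in FoxP3+CD25+ cells (7.15%) and 517 lower (3.75%). Both comparisons called 694 genes, all in the same direction, which is 79.4% of the KO calls and 46.1% of the WT calls. Of the KO calls 861 of 874 (98.5%), and of the WT calls 1440 of 1504 (95.7%), had the same sign in the other genotype, against 68.3% of all genes tested. The 2 fold changes correlated across genes at r = 0.753, a description over genes that are not independent replicates. Genes called higher in KO had a median log2 fold change of 1.41 in KO and 1.52 in WT, and genes called lower -1.01 and -0.88. Chosen the other way, genes called higher in WT had a median of 0.87 in KO and 1.46 in WT, and genes called lower -0.71 and -0.91. A list can favour the genotype that chose it, although the genes called higher in KO had the larger median in WT. WT replicate 1 lacks Y-linked counts, unlike the other mice, and the WT count was 970 without its FoxP3+CD25+ library and 956 without its FoxP3-CD25- library. It was 2185 without WT FoxP3+CD25+ replicate 2, 828 without WT FoxP3-CD25- replicate 2, and 2634 with replicate blocks.

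**Figure D5:**
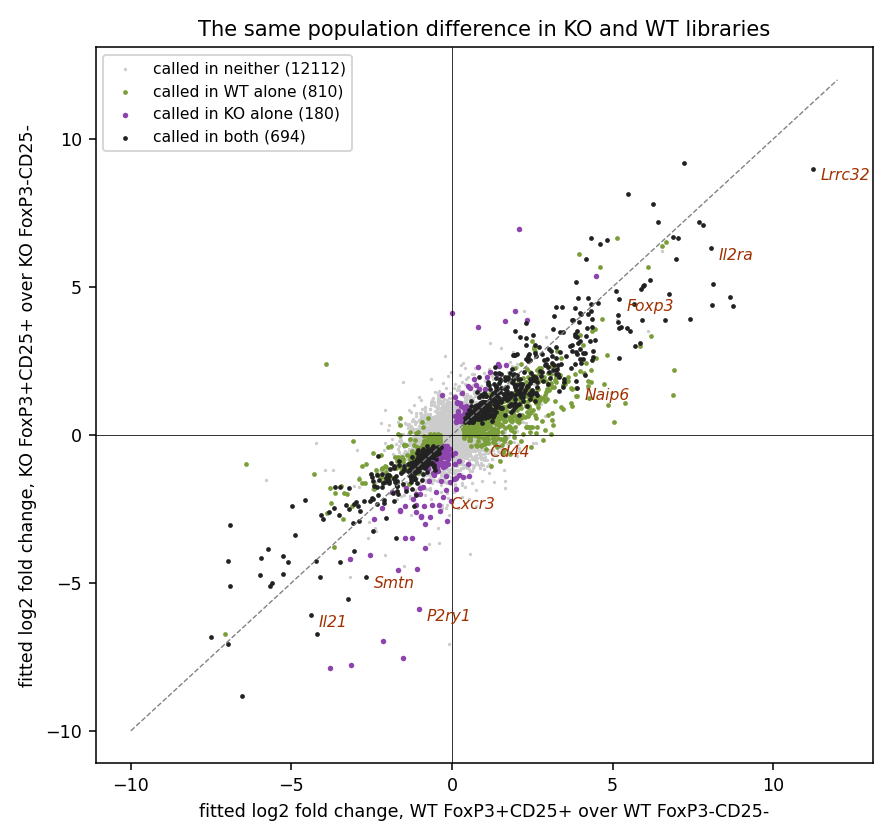
Fitted log2 fold change of FoxP3+CD25+ over FoxP3-CD25- cells in WT (x) and KO libraries (y) for 13796 genes, coloured by where they were called; the dashed line marks equal values. The 694 genes called in both (black) lie in the quadrants of equal sign, and *Cxcr3* and *P2ry1* are among the 180 called in KO alone.

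Whether a gene differed more in one genotype was tested as the difference of the 2 contrasts. In the group-mean fit 0 of 13796 were called (0%) by edgeR's quasi-likelihood test, with 685 at an unadjusted p under 0.05. That is about the number that this threshold passes when no gene differs. The group-mean fit leaves out the pairing by mouse, however, so this number does not show that no gene differs. DESeq2 called 25, edgeR's likelihood ratio test 32, no filter on low counts 7, and replicate blocks 148 (24 with a larger value in KO and 124 with a smaller). Without WT FoxP3+CD25+ replicate 2 the count was 121. The 5 genes of lowest p were *P2rx7*, *Naip6*, *Tns1*, *Adh1* and *Bmp7*, whose FDR was 0.157 to 0.297 and, with replicate blocks, 0.00391 to 0.0155. The log2 fold change of *P2rx7* was 1.05 (SE 0.10) in KO and 2.09 (SE 0.10) in WT. *Naip6*, a gene of the NAIP family of bacterial sensors, had 1.57 (SE 0.23) in KO and 3.89 (SE 0.23) in WT. *Tns1*, the tensin 1 gene, had 0.66 and 2.096, *Bmp7*, a growth factor gene, 0.31 and 1.46, and *Adh1*, an alcohol dehydrogenase gene, -0.72 and -2.31. The KO calls of *Tns1* and *Adh1* were lost with any 1 of the 4 libraries left out (FDR 0.0691 to 0.311).

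Members of the programme with unlike values in the genotypes can be read the same way, with the test of the difference beside them. *Cxcr3* had a log2 fold change of -2.11 in KO and -0.28 in WT (FDR of the difference 0.631, with replicate blocks 0.00283). *Tbx21* had -2.37 and -0.63 (0.763 and 0.0237). In WT, FoxP3+CD25+ cells held 73.45 and 32.7 CPM of *Cxcr3* against 84.3 and 44.1 CPM in FoxP3-CD25- cells. For *Tbx21* the WT levels were 9.60 and 5.67 CPM against 14.3 and 8.875 CPM. *Pde3b* had -1.76 and -3.48 (0.52 and 0.00391), *Lef1* -0.89 and -1.65 (0.617 and 0.0243) and *Ikzf2* 2.76 and 4.09 (0.476 and 0.00414). *Pdcd1* had 0.08 and 1.23 (0.5 and 0.0234). In the lists, the median of activated and memory genes was -0.49 in KO and -0.06 in WT, that of the Treg signature 2.29 and 3.11, and that of Treg-repressed genes -0.79 and -0.94. WT cells called 34 of the 35 signature genes higher and 19 of the 30 repressed genes lower, against 28 and 16 in KO. With replicate blocks in both, the counts were 35 and 22 in WT and 33 and 20 in KO, and no test compared them.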

How the data were processed

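Per the submitters' processing notes, the authors made the deposited counts by aligning reads to mm10 (GRCm38) with HISAT2 2.1.0 and counting them per gene with HTSeq 0.11.1, where the study's methods give version 0.11.0; the annotation and strand setting were not stated. Genes past edgeR's filter (minimum count 10) were fitted with TMM factors and 1 mean per group over all 10 libraries by edgeR 4.0.16 (quasi-likelihood F-test, two-sided) in R 4.3.3 with limma 3.58.1, with Benjamini-Hochberg adjustment over 13796 genes and calls at FDR 0.05. DESeq2 1.42.0, other filters and scalings, stricter thresholds, replicate blocks and each library left out were tried as alternatives. The replicate number in the titles was read as the mouse: over 13796 genes, the deviations of KO1 and KO2 from their group means correlated at r = 0.421 between the FoxP3+CD25+ and FoxP3-CD25- libraries, a description across genes.

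Named were *Satb1*, *Foxp3* and *Il2ra*; the 10 genes of lowest p called in each direction with equal sign in both mice and a mean of at least 5 CPM; of each of 25 lists, the 3 called members of lowest p and the most abundant tested member not called; 11 genes the study names; and the 5 of lowest p in the difference of contrasts, 94 genes in all, not all of which are given in the text. Members and lists were chosen with earlier results of these data known. Positions came from GENCODE M21. Python 3.11.15, pandas 2.3.3, numpy 2.4.6, scipy 1.17.1 and matplotlib 3.10.9 made the summaries and plots.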

Additional observations from a re-analysis of the deposited data

Results flagged for a closer look

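In 4 named genes both mice labelled KO differed one way between FoxP3+CD25+ and FoxP3-CD25- cells and both WT mice the other way, while the test of that difference was not passed. *Cd44* stood at 124 (KO1) and 112 CPM (KO2) against 148 and 156 CPM in the KO libraries, and at 212 and 137 CPM against 105 and 80.1 CPM in the WT libraries (FDR of the difference 0.476, with replicate blocks 0.00367). *Dusp6*, a phosphatase gene of the ERK pathway, stood at 40.9 and 41.7 CPM against 66.7 and 59.2 CPM in KO and at 47.0 and 51.0 CPM against 45.3 and 46.2 CPM in WT (FDR 0.52, with replicate blocks 0.0504). *Bcl11b* stood at 838 and 727 CPM against 885 and 758 CPM in KO and at 927 and 700 CPM against 814 and 688 CPM in WT (FDR 1). *Prkar1a* stood at 488 and 426 CPM against 505 and 437 CPM in KO and at 531 and 441 CPM against 465 and 388 CPM in WT (FDR 1).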

How the results depend on the processing

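Of the 66 named genes called, 46 were called in each of 15 alternatives; 19 lost the call with 1 library left out, 12 at FDR 0.01, 16 when a fold change over 1.5 was tested, and *Adh1* and *Tcrg-C2* also with another test. Of the 28 not called, 10 were called in at least 1 alternative, 7 of them only with replicate blocks. The 874 KO calls became 1649 with replicate blocks, 407 at FDR 0.01, 305 with a fold change over 1.5 tested, and 396 to 441 with 1 library left out. The 1504 WT calls became 2634, 854, 659 and 828 to 2185. The 0 calls for the difference of contrasts became 7 with no filter, 25 with DESeq2, 32 with the likelihood ratio test, 148 with replicate blocks and 0 to 121 with 1 library left out. A fit that leaves 1 library in a group assumes that it varies like the other groups.

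No called gene turned in direction. With 1 library left out, 11 genes that were not called did, and their log2 fold changes ran from -0.36 to 0.00 (*Lck*), -0.18 to 0.05 (*Bcl11b*, with 0.03 between), -0.15 to 0.06 (*Prkar1a*, with 0.05 between), -0.14 to 0.01 (*Srebf2*), -0.10 to 0.12 (*Pkm*, with -0.07 between), -0.11 to 0.05 (*Csf1r*), -0.05 to 0.26 (*Pecam1*), -0.24 to 0.86 (*Hsp90ab1*, with -0.11 between), -0.30 to 0.03 (*Ddx3y*), -0.05 to 0.23 (*Pdcd1*) and -0.18 to 0.14 (*Id3*). The cause was not tested. With 2 mice a group, small differences may go uncalled, and genes with few counts are known only to within counting error.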
